A study of Homo sapiens with 4 samples.

Results

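The line SA, raised from soft agar, was set against its parental line DLD1, each represented by 1 RNA library of the 4 in the series. Genes were taken into the comparison where the higher of both lines reached 1 RPKM (reads scaled to transcript length and library size), which left 11367 of 57746 listed genes. The difference of a gene is log2(RPKM + 1) in SA minus that in DLD1, a scale on which genes of low level appear to change less than they do. By that difference 77 genes stood at least 2-fold apart, and 6614 genes at 5 RPKM or more in both lines were taken as broadly expressed. DLD1 is an established human colorectal cancer cell line that the labels call parental and epithelial. SA is its derivative from colonies in soft agar, a gel in which only cells that grow without attachment form colonies, and it is labelled mesenchymal. The other lines of the series are SPH, a mesenchymal derivative from colonospheres (floating spheres of colon cells), and METS, an epithelial derivative from a lung metastasis of a xenograft. No line carries an engineered allele or an added agent per the labels, and all were kept in McCoy's 5A medium with fetal bovine serum, penicillin and streptomycin. The labels do not say whether 1 colony or a pool founded SA. With 1 library per line there is no replicate check, so no difference was tested and every value below describes these libraries. In such bulk libraries a low level in every cell and a high level in few cells cannot be told apart.

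Epithelial cells are held together by cadherin junctions, desmosomes and claudins, and their inner scaffold is built from keratin filaments. In the epithelial-mesenchymal transition cells loosen these contacts, replace keratins in part by vimentin and secrete proteins that remodel the matrix around them. Carcinoma cells often stop along the way, with epithelial and mesenchymal genes active in the same culture.

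The libraries were similar in size and make-up. A gene of 1 kb at 1 RPKM corresponded to an estimated 53.9 reads in DLD1 and 48.6 in SA, and mitochondrially encoded transcripts held 25.8% and 26.6% of the summed RPKM. DLD1 held the defining markers of its epithelial label, EPCAM, CDH1 and KRT8, and SA held them too. EPCAM stood at 212 RPKM in DLD1 and 222 in SA, and CDH1, E-cadherin, at 115 and 94.5. The intestinal markers CDX2 (31.9 and 31.4 RPKM) and CDH17 (22.5 and 26.2) were also present in both lines, whereas GPA33 and LGALS4 stayed under 1 RPKM in both. Among defining mesenchymal markers, VIM and SPARC were high in SA alone of the pair. FN1 (0.43 RPKM in DLD1 and 0.56 in SA), CDH2 (0.15 and 0.18), ZEB1 (0.02 and 0.26) and TWIST1 (0.01 and 0.02) stayed low, and ZEB2 is listed at 0 in both. The label "mesenchymal" thus holds for SA by some of its markers and not by others. Markers of fibroblasts and pericytes, of leukocytes and of neuroendocrine cells gave no gene at 1 RPKM in either line. Their summed levels in DLD1 and SA were 0.46 and 0.65 RPKM over 12 fibroblast and pericyte genes, 1.74 and 1.55 over 16 leukocyte genes and 0.29 and 0.34 over 8 neuroendocrine genes. Single markers of other cells did reach 1 RPKM. The 7 endothelial genes summed to 2.17 RPKM in DLD1 and 2.19 in SA, with CLDN5 (1.01 and 1.21) at that level. The 7 erythroid and platelet genes summed to 5.92 and 6.62 RPKM, nearly all from PF4, a platelet chemokine (5.65 and 6.4). The 8 smooth muscle genes summed to 5.5 and 5.75 RPKM, mostly from SMTN (3.55 and 3.9) and TAGLN (1.56 and 1.32). The part of these cell types in the differences was not tested.

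At any size of difference 6277 of the 11367 compared genes were higher in SA and 5049 lower. Counts of list members below are to be read against these. The 2-fold genes were 0.677% of all genes compared. Of these, 50 were higher in SA (0.44% of genes) and 27 lower (0.238%). The 2 sides differed in level. Of the 50 higher genes 37 stood under 1 RPKM in DLD1, and their median level was 0.275 RPKM in DLD1 and 2.49 in SA. Of the 27 lower genes 20 were still at 1 RPKM or more in SA, with a median of 5.77 RPKM in DLD1 and 1.74 in SA. The higher side therefore consisted mostly of genes near 0 in the parental line, and the lower side mostly of expressed genes at reduced level. Only 10 of the 77 were broadly expressed. Subtracting a smooth trend of the difference on mean level changed the split to 41 higher and 34 lower genes.

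**Figure D1:**
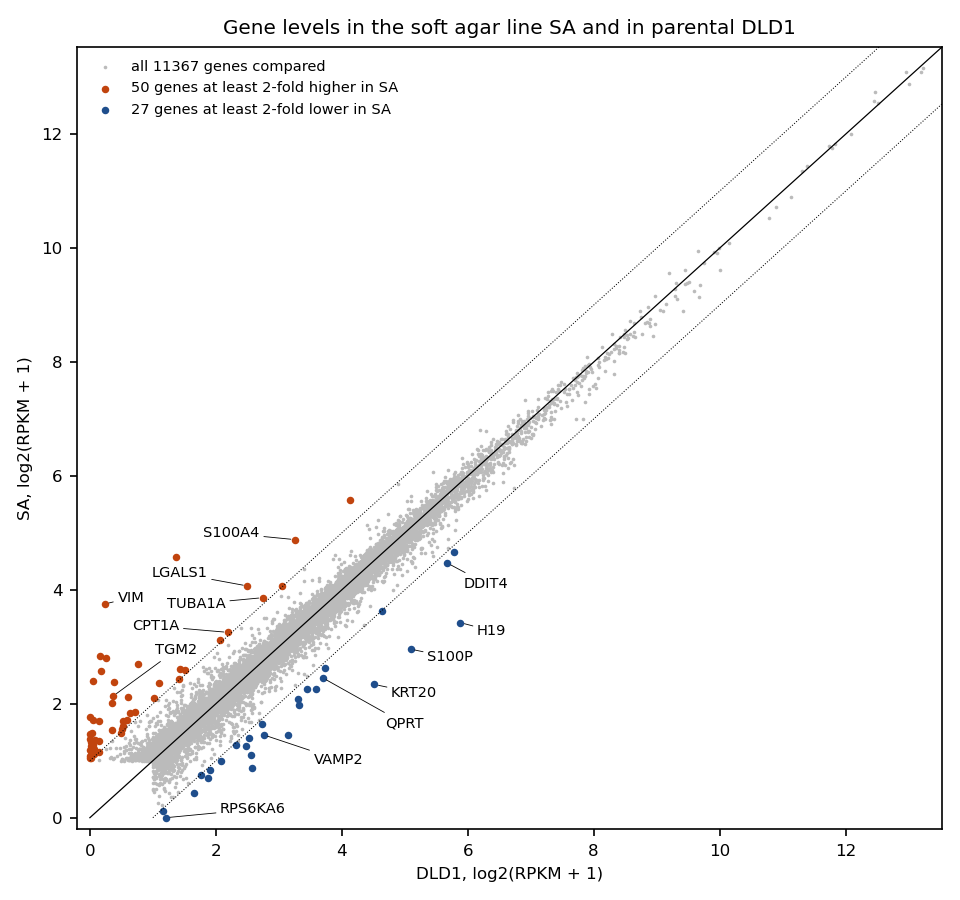
Level of each of 11367 genes in DLD1 (x axis) and SA (y axis), both as log2(RPKM + 1), with 1 library per line. The solid line marks equal levels and the dotted lines a 2-fold difference. The 50 higher genes crowd at the left edge, where DLD1 is near 0, while the 27 lower genes spread along the lower dotted line.

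The intermediate filament genes VIM, KRT5 and KRT20 were among the 77 genes and went different ways. VIM, the vimentin gene, stood at 0.18 RPKM in DLD1, against 12.5 in SA, 12.2 in SPH and 0.22 in METS. KRT5, a keratin of basal epithelial cells, stood at 0.13, 4.96, 5.15 and 0.07 RPKM across those lines. KRT20, a keratin of mature gut epithelium, stood at 21.9, 4.06, 3.18 and 0.50 RPKM. SA and SPH were thus alike in all 3 genes. METS was at the level of DLD1 in VIM and KRT5 and the lowest of the 4 lines in KRT20. Of 10 keratins that entered the comparison 8 were lower in SA, with a median difference of -0.53 (median of all genes 0.03). With no minimum level the median was -0.03 over 36 keratins. The abundant KRT8, KRT18 and KRT19 differed by -0.53, -0.51 and -0.54, KRT80 by -0.55 and KRT7, at 2.22 and 1.09 RPKM, by -0.62. The other exception beside KRT5 was KRT10, a keratin of stratified epithelia, at 11.1 RPKM in DLD1 and 14.0 in SA (0.31).

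The promoters of these 3 filament genes are shown because these genes had the largest differences among filament genes, in opposite directions. Each runs from 250 bases before to 50 after the gene start of RefSeq (GRCh38.p14), on the gene's own strand. VIM is at chr10:17227991-17228290 on the plus strand, KRT5 at chr12:52520345-52520644 and KRT20 at chr17:40885193-40885492, both on the minus strand. Capitals mark CAGGTG or CACCTG, its reverse complement, the E-box letters that factors of the ZEB and SNAI families can bind.
VIM: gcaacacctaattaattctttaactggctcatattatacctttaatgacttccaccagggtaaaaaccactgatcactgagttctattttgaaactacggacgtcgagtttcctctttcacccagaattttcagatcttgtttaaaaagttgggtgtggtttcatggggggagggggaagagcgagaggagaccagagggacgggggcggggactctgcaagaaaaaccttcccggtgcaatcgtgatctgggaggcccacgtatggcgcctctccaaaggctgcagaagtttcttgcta
KRT5: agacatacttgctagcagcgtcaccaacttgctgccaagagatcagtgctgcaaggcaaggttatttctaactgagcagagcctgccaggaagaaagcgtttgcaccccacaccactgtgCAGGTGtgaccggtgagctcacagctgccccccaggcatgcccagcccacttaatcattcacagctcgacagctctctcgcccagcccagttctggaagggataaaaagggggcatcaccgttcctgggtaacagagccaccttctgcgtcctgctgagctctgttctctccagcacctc
KRT20: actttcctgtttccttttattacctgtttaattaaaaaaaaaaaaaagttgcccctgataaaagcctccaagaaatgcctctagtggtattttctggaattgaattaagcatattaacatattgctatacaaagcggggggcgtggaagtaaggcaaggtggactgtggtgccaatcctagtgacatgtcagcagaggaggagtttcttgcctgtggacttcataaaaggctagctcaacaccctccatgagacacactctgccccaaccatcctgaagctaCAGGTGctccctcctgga
The match in KRT5 begins 130 bases before the start, and that in KRT20 begins 33 bases after it. The window of VIM held none. Of the 2-fold higher genes 30 of 50 had a promoter in the table and 9 of these (30%) held the motif, against 8 of 23 (34.8%) for the lower genes. Over the 8770 compared genes with a promoter the share was 18.4%, and it was 20.6% over all 27305 promoters. The core of TCF and LEF sites, CTTTGA or its reverse complement TCAAAG, was held by 2 of 30 higher genes (6.67%), 1 of 23 lower genes (4.35%) and 8.14% of the compared genes. These matches describe letters in a window and show no binding.

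Some of the higher genes encode secreted or matrix-modifying proteins. SPARC, a collagen-binding matricellular protein, stood at 0.19 RPKM in DLD1 and 5.96 in SA, and IGFBP7, a secreted binder of insulin-like growth factors, at 0.12 and 6.17. TGM2, the transglutaminase that crosslinks matrix proteins, stood at 0.29 RPKM in DLD1, against 3.39 in SA, 3.16 in SPH and 0.15 in METS. LOXL4, an enzyme that crosslinks collagen and elastin, went from 0.03 RPKM in DLD1 to 2.30 in SA, with 2.25 in SPH and 0.09 in METS. For TGM2 and LOXL4 the lines fell into a low pair, DLD1 and METS, and a high pair, SA and SPH. CTHRC1, a secreted protein with a collagen-like repeat, did not follow that division, at 0.55 RPKM in DLD1, against 2.57 in SA, 2.43 in SPH and 3.71 in METS. At lower levels stood CHST11, which sulfates chondroitin (0.03 RPKM in DLD1 and 1.41 in SA), and ADAM19, a membrane metalloprotease (0.05 and 1.18). The list of matrix, crosslinking and matricellular proteins as a whole was not shifted. Of its 23 measured genes 12 were higher and 11 lower (median 0.05), and 4 were past 1.5-fold higher where 1.43% of all genes were. Those 4 were IGFBP7, SPARC, TGM2 and LOXL4, each under 1 RPKM in DLD1, so they entered only through SA. On the other side, OLFML3, a secreted glycoprotein, stood at 19.4 RPKM in DLD1 and 9.42 in SA (-0.97), and CYR61, a matricellular YAP target, at 42.4 and 28.7 (-0.55). THBS1, thrombospondin, differed little, at 16.3 and 15.9 RPKM. The collagens of connective tissue did not appear, with COL1A1 at 0.10 RPKM in DLD1 and 0.11 in SA. The laminin chain LAMB3, part of the epithelial laminin of basement membranes, stood at 27.0 RPKM in DLD1 and 20.7 in SA (-0.37).

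A further set of higher genes encodes parts of the cytoskeleton and proteins linked to cell movement. S100A4, a calcium-binding protein that acts on myosin, stood at 8.56 RPKM in DLD1, against 28.5 in SA, 52.4 in SPH and 305 in METS. LGALS1, the galactoside-binding galectin of many mesenchymal cells, stood at 4.66, 15.8, 19.4 and 6.65 RPKM. TUBA1A, an alpha-tubulin, stood at 5.71, 13.6, 15.6 and 14.1 RPKM. These 3 genes were expressed in the parental line already, and S100A4 and TUBA1A were as high or higher in the epithelial METS. By contrast MSN, moesin, which ties actin to the membrane, stood at 0.11 RPKM in DLD1, against 2.23 in SA, 2.18 in SPH and 0.04 in METS. TUBB2B, a beta-tubulin of neural tissue, showed the same low and high pairs of lines (0.52, 3.34, 4.15 and 0.26 RPKM). DBN1, the actin-binding drebrin, stood at 0.41 RPKM in DLD1 and 1.82 in SA, exactly at the 2-fold limit. GMFG, a regulator of actin branching, stood at 0.02 and 1.82 RPKM, the latter an estimated 132 reads. EMP3, a small membrane protein, stood at 0.51 and 2.27, and ARHGAP4, which turns off small GTPases, at 0.43 and 1.93. PRKCDBP, the caveola protein cavin-3, reached 1.06 RPKM in SA, about 86 estimated reads, from 0.01 in DLD1.

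The abundant cytoskeletal genes did not all go the way of these low ones. Of 13 measured tubulins 9 were lower in SA (median -0.12, and -0.005 over 20 genes with no minimum level), and TUBA1B, the most abundant, stood at 716 RPKM in DLD1 and 672 in SA. Of 54 genes of the actin cytoskeleton and its membrane linkers 38 were lower (median -0.10). FSCN1, fascin, which bundles actin in cell protrusions, stood at 39.1 RPKM in DLD1, against 23.9 in SA, 23.4 in SPH and 12.8 in METS (-0.69). TPM1, a tropomyosin, stood at 31.7, 19.1, 14.9 and 19.7 RPKM (-0.71), and VILL, a villin-like protein, at 5.44 in DLD1 and 2.29 in SA (-0.97). Both ACTG1, cytoplasmic actin (805 and 989 RPKM), and ARPC3, an actin-nucleating subunit (27.5 and 34.5), were higher, by 0.30 and 0.32. TMSB10, which binds actin monomers, showed the greatest loss in RPKM among genes outside the mitochondrial genome, from 2234 to 1913 (-0.22).

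Signalling genes formed another part of the higher side. AXL, a receptor tyrosine kinase, stood at 0.28 RPKM in DLD1 and 1.90 in SA. GLI3, a transcription factor of the Hedgehog pathway, stood at 0.01 RPKM in DLD1, against 1.14 in SA, 1.02 in SPH and 0.03 in METS. EDAR, the ectodysplasin receptor, stood at 0.44, 2.26, 2.43 and 0.28 RPKM, and overlaps RANBP2, so its reads are less certain. NELL2, a secreted glycoprotein best known from neurons, and STC2, the hormone stanniocalcin, are listed at 0 in DLD1 and METS. NELL2 stood at 1.78 RPKM in SA and 1.73 in SPH, and STC2 at 1.59 and 1.55. All 5 genes were under 1 RPKM in both epithelial lines. RGCC, a regulator of the cell cycle, was expressed in all lines, at 1.67 RPKM in DLD1, against 4.42 in SA, 5.12 in SPH and 1.62 in METS. Of 46 receptor tyrosine kinase and ligand genes 21 were higher and 25 lower (median -0.02). PDGFA (0.63 and 1.70 RPKM) and EPHA4 (0.49 and 1.38) followed AXL among the higher ones, and IGF2 (1.58 and 0.53) and FGFR3 (1.72 and 0.74) were the lowest. MET, the receptor of hepatocyte growth factor, stood at 16.6 RPKM in DLD1 and 23.3 in SA (0.47).

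WNT targets and antagonists had the highest median among the lists with at least 20 compared genes. Colorectal cancer cells such as DLD1 carry an active WNT pathway, and many of its targets are themselves inhibitors of it. Of 25 measured targets and antagonists 21 were higher in SA (median 0.23) and 7 were past 1.5-fold higher where 1.43% of all genes were. APCDD1, an inhibitor at the receptor, stood at 0.27 RPKM in DLD1 and 3.06 in SA, NOTUM, which inactivates WNT ligands, at 0.65 and 2.22, and NKD1, an intracellular inhibitor, at 2.67 and 4.82. DKK4, a secreted inhibitor, went from 0.04 RPKM to 4.26, an estimated 185 reads. DKK4, APCDD1 and NOTUM were under 1 RPKM in DLD1 and entered only through SA. Among the expressed ones, LEF1, a transcription factor of the pathway, stood at 9.07 RPKM in DLD1, against 14.5 in SA, 11.6 in SPH and 15.99 in METS (0.62). SLC12A2, the sodium-potassium-chloride cotransporter, stood at 42.5, 66.2, 61.2 and 30.1 RPKM (0.63). The long noncoding RNA PVT1, neighbour of MYC, stood at 1.16 RPKM in DLD1 and 2.62 in SA, and MYC itself at 47.2 and 54.5 (0.20). The targets CCND1 (150 and 142 RPKM) and SOX9 (78.3 and 69.7) were not higher.

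Some genes of retinoid handling were higher in SA. STRA6, the membrane receptor for the retinol carrier of blood, stood at 0.01 RPKM in DLD1, against 1.39 in SA, 1.29 in SPH and 0 in METS. CRABP2, which carries retinoic acid to its receptor, stood at 9.59, 19.7, 20.5 and 1.81 RPKM (0.97). SA and SPH were alike in both genes and METS was the lowest of the 4 lines. The receptors differed little: RARG stood at 11.9 RPKM in DLD1 and 11.1 in SA, RARA at 4.39 and 4.29 and RXRA at 4.45 and 4.71. Over the 16 measured genes of the list 10 were higher (median 0.06), where 6277 of all 11367 compared genes were. GPRC5A, a membrane receptor named for its induction by retinoic acid, was lower, at 35.0 RPKM in DLD1 and 20.02 in SA (-0.78).

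The remaining higher genes serve varied functions. CPT1A, the enzyme that brings fatty acids into mitochondria, stood at 3.57 RPKM in DLD1, against 8.54 in SA, 12.4 in SPH and 8.2 in METS, lowest in the parental line. ELOVL5, an elongase of fatty acids, stood at 0.01 RPKM in DLD1 and 1.51 in SA, and SLC17A9, a transporter that loads nucleotides into vesicles, is listed at 0 in DLD1 and stood at 1.28 in SA. ANO6, a membrane phospholipid scramblase, is listed at 0 in DLD1 and METS and stood at 1.07 RPKM in SA and 1.03 in SPH. CLDN11, a claudin of myelin and testis, stood at 0.06 and 1.56 RPKM in DLD1 and SA, DHRS2, a reductase, at 0.11 and 1.55 and PTPRN2, a phosphatase-like protein of secretory granules, at 0.44 and 2.05. PRF1, perforin of cytotoxic lymphocytes, stood at 0.30 RPKM in DLD1, against 4.19 in SA, 3.65 in SPH and 0.86 in METS. It was not accompanied by other genes of those cells: PTPRC, CD3D, CD3E and GZMA are listed at 0 in DLD1 and SA, and NKG7 stood at 0.18 and 0.24 RPKM. In all, 16 genes at 1 RPKM or more in SA were at 0.05 RPKM or less in DLD1.

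Some members share reads with a neighbour or copy and are less certain. The read-through entries ATP6V1G2-DDX39B (16.5 RPKM in DLD1 and 46.6 in SA), MINOS1-NBL1 (1.70 and 5.10) and SYS1-DBNDD2 (0.65 and 2.64) were higher while DDX39B (74.8 and 59.6), NBL1 (54.7 and 49.4) and DBNDD2 (10.7 and 7.49) were lower. How reads of shared exons were assigned is not stated. LY6G5B (1.03 and 3.31 RPKM) overlaps CSNK2B (41.3 and 40.4), and LIMS3_2 (0.05 and 1.30) is a copied gene. CST1 (0.70 and 5.52 RPKM), a secreted cystatin, also has close copies. IGFBP7 overlaps POLR2B (17.15 RPKM in DLD1 and 19.29 in SA), and S100A4 overlaps S100A5 (1.77 and 2.23). Of the 77 genes 12 overlap another compared gene, and 6 with clone, small RNA or pseudogene names were not described.

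**Figure D2:**
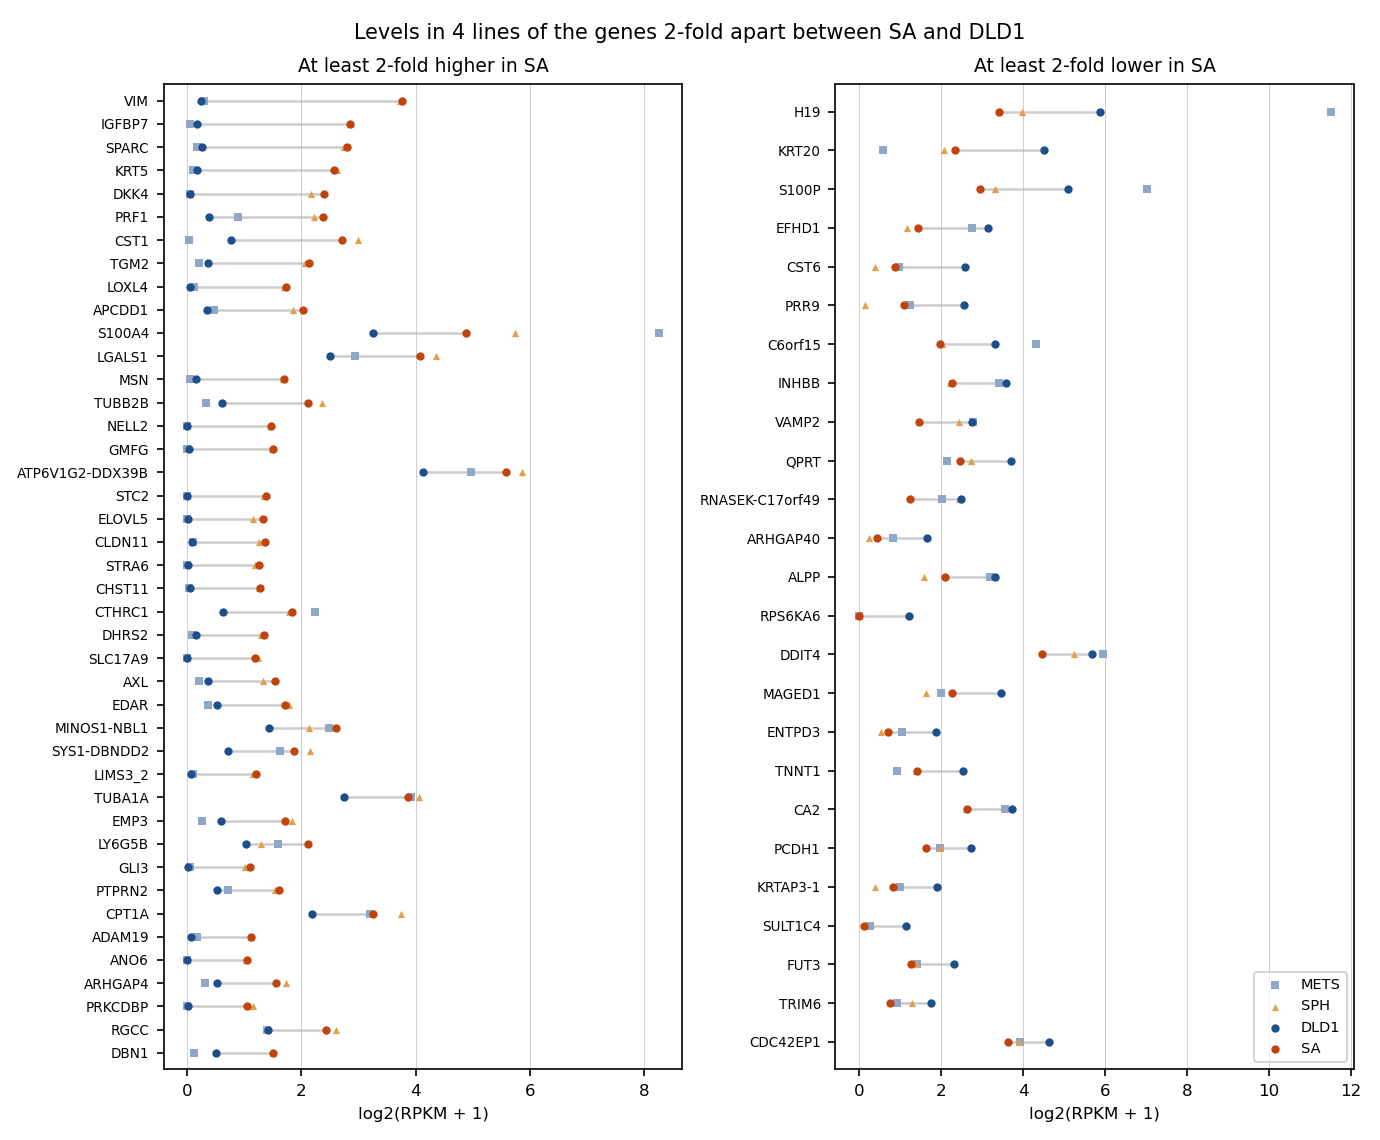
Levels as log2(RPKM + 1) in the 4 lines of 42 genes at least 2-fold higher in SA (left) and 25 at least 2-fold lower (right), 1 library per line, with a grey bar from DLD1 to SA. Most higher genes show SPH beside SA and METS beside DLD1, while S100A4, TUBA1A and CPT1A are high in METS too. On the lower side METS is near DLD1 in some genes, as for CA2 at 10.7 and 12.3 RPKM. In others it is nearer SA, as for FUT3 (1.66 in METS and 1.42 in SA), or below SA, as for KRT20 and QPRT.

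The 27 lower genes included KRT20, CA2 and ALPP of the intestinal differentiation list. CA2, carbonic anhydrase of the colon surface, stood at 12.3 RPKM in DLD1, against 5.16 in SA, 5.05 in SPH and 10.7 in METS. ALPP, the alkaline phosphatase of placenta, has a nearly identical copy and stood at 8.89, 3.25, 2.01 and 8.21 RPKM. TSPAN1, a tetraspanin short of 2-fold, was lower in SA alone, at 28.4 RPKM in DLD1, against 16.1 in SA, 31.4 in SPH and 54.3 in METS (-0.79). Of 20 measured genes of intestinal differentiation 14 were lower (median -0.12, and -0.01 over 45 genes with no minimum level), and 4 were past 1.5-fold lower where 1.4% of all genes were. The goblet cell genes AGR2 (79.8 and 78.2 RPKM) and TFF3 (7.33 and 6.94) and the villin gene VIL1 (1.39 and 1.89) were not part of that shift. S100P, a calcium-binding protein of many carcinomas, stood at 33.1 RPKM in DLD1 and 6.78 in SA, and S100A14 at 210 and 127 (-0.72).

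Other lower genes serve varied functions. PCDH1, a protocadherin, stood at 5.68 RPKM in DLD1 and 2.11 in SA, ENTPD3, an enzyme that breaks down extracellular nucleotides, at 2.66 and 0.63, and FUT3, which makes Lewis blood group sugars, at 3.99 and 1.42. QPRT, an enzyme of NAD synthesis from tryptophan, stood at 11.95 RPKM in DLD1, against 4.49 in SA, 5.69 in SPH and 3.46 in METS, lower in all derived lines. MAGED1, an adaptor of the MAGE family, did likewise (9.94, 3.79, 2.11 and 2.99 RPKM). TNNT1, a troponin of slow muscle, stood at 4.75, 1.65, 1.61 and 0.90 RPKM, and TNNC1, troponin C, at 226, 127, 107 and 149. RPS6KA6, a kinase of the ERK pathway, stood at 1.31 RPKM in DLD1, an estimated 600 reads, and is listed at 0 in SA, SPH and METS. SULT1C4, a sulfotransferase, stood at 1.23 RPKM in DLD1 and 0.08 in SA. The secreted protease inhibitor CST6 (4.98 and 0.84 RPKM), the mitochondrial calcium-binding protein EFHD1 (7.89 and 1.72) and the activin subunit INHBB (11.01 and 3.78) were lower as well.

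In a few genes of the lower side SA stood apart from SPH. VAMP2, a protein of vesicle fusion, stood at 5.77 RPKM in DLD1, against 1.74 in SA, 4.46 in SPH and 5.89 in METS. DDIT4, a stress-induced inhibitor of mTOR, stood at 49.96, 21.2, 36.7 and 60.4 RPKM. EEF1A2, a tissue-specific translation elongation factor, stood at 42.6, 23.1, 43.1 and 15.01 RPKM (-0.86), and PRSS8, the membrane protease prostasin, at 27.3, 14.9, 26.3 and 21.3 (-0.83). CLDN3, a claudin, stood at 15.5, 9.45, 15.2 and 8.76 RPKM (-0.66). In VAMP2 and PRSS8 SA was the lowest of the 4 lines, while in EEF1A2 and CLDN3 METS was lower still.

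Around the 2-fold limit the order of genes was close. Just inside on the lower side were CDC42EP1, an effector of CDC42 (23.9 and 11.4 RPKM), and TRIM6 (2.40 and 0.69), and just outside was CDC42EP5, another CDC42 effector (4.09 and 1.55 RPKM, -0.997). On the higher side BHLHE41, a clock repressor, stood just outside (0.42 and 1.83 RPKM, 0.995) and SESN3, a sestrin, next to it (0.28 and 1.55, 0.994). The limit separates no distinct classes there.

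Among the 6614 broadly expressed genes the lines were close. Of these genes 93.5% lay within 1.25-fold, and the SD of the difference over genes was 0.19. At 1.5-fold 24 were higher (0.363%) and 48 lower (0.726%). Scaling both libraries to their summed RPKM without mitochondrial genes gave 32 higher and 39 lower.

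Sphingolipid, vesicle and transport genes were among the broadly expressed genes on the higher side. UGT8, which adds galactose to ceramide, stood at 7.23 RPKM in DLD1, against 13.9 in SA, 13 in SPH and 9.12 in METS (0.85). SPTLC3, a subunit of the enzyme that starts sphingolipid synthesis, stood at 5.98, 10.3, 8.92 and 5.12 RPKM (0.70). MGAT5, which branches the sugars of surface glycoproteins, stood at 20.2, 34.0, 32.0 and 40.4 RPKM (0.73). MGAT5 was thus higher in every derived line than in DLD1, whereas SPTLC3 was lowest in METS. SLC48A1, a heme transporter (5.78 and 10.4 RPKM in DLD1 and SA), and ATP6V1C2, a subunit of the proton pump (7.86 and 13.8), were both higher by 0.74. ARHGAP18, a GTPase-activating protein, stood at 22.9 and 36.4 RPKM, DPYSL3, a microtubule-binding protein, at 6.84 and 11.2, and PPFIBP1, a liprin of focal contacts, at 10.5 and 17.1. TGFB2, a TGF-beta ligand, stood at 5.99 RPKM in DLD1 and 9.09 in SA, and SEMA3F, a secreted semaphorin, at 14.5 and 22.3. KIAA1199, which degrades hyaluronan, stood at 11.4 and 17.5 RPKM. HNRNPA1P48 (71.9 and 111 RPKM) is a near copy of HNRNPA1 and RPS10-NUDT3 (13.6 and 22.4) a read-through, so both are uncertain.

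The lower side of the broadly expressed genes held genes of varied functions. ASS1, which makes argininosuccinate in arginine synthesis, stood at 105 RPKM in DLD1, against 54.5 in SA, 74.5 in SPH and 64.9 in METS (-0.93). ARG2, the arginase of mitochondria, went the other way, at 6.44 and 9.75 RPKM in DLD1 and SA (0.53). GDF15, a stress-induced cytokine, stood at 50.6, 28.6, 28.9 and 97.0 RPKM (-0.80), and PCK2, mitochondrial PEP carboxykinase, at 16.9, 10.02, 9.17 and 17.8 (-0.70). For GDF15 and PCK2 SA and SPH formed the low pair and METS was highest. CST7, a cystatin of lysosomes, stood at 50.8 RPKM in DLD1 and 25.7 in SA (-0.96), PLA2G16, a phospholipase, at 12.8 and 6.90, and TINAGL1, a secreted matrix protein, at 42.4 and 24.4. DUSP5, a phosphatase of ERK, stood at 30.1 RPKM in DLD1 and 18.1 in SA, and APOBEC3B, a cytidine deaminase, at 93.2 and 58.4. The greatest losses in RPKM after TMSB10 were GAPDH (1760 to 1469), KRT8 (817 to 565) and RPS2 (1022 to 780). The greatest gains beside ACTG1 were FTL, the ferritin light chain (585 to 755), and PTMA, prothymosin alpha (699 to 782).

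**Figure D3:**
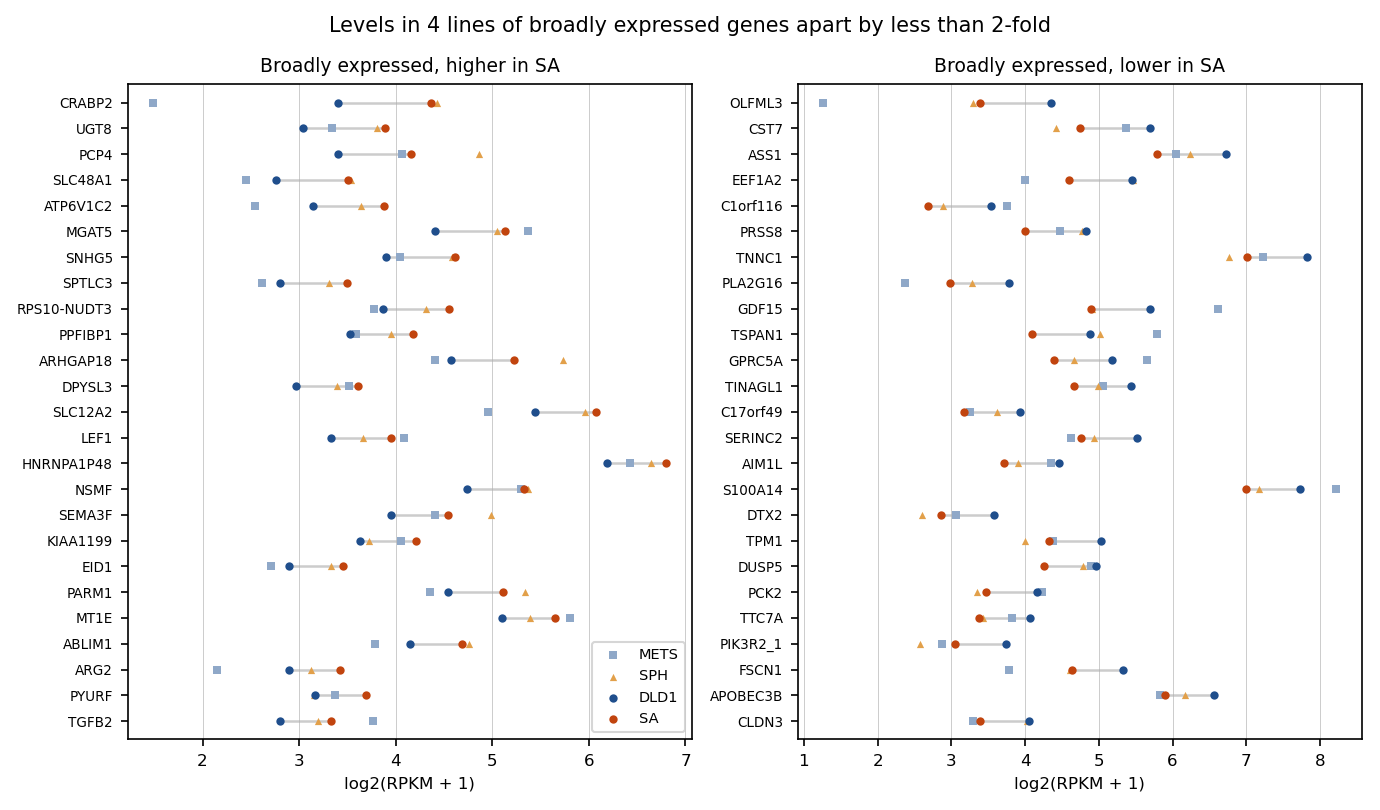
Levels as log2(RPKM + 1) in the 4 lines of the 25 highest and 25 lowest broadly expressed genes that stayed within 2-fold, 1 library per line, with a grey bar from DLD1 to SA. CRABP2 and OLFML3 come closest to 2-fold (0.97 and -0.97). EEF1A2, PRSS8 and TSPAN1 show SPH at the level of DLD1.

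More genes of the stress and synthesis lists were lower than higher. Of 42 genes of the amino acid and unfolded protein stress response 32 were lower (median -0.13), and 5 were past 1.5-fold lower where 1.4% of all genes were. CHAC1, which degrades glutathione, stood at 9.96 RPKM in DLD1 and 4.58 in SA, PHGDH, the entry to serine synthesis, at 41.9 and 26.5, and ATF4, the transcription factor of the response, at 188 and 156. The list did not move as 1, since 2 of its genes were past 1.5-fold higher where 1.43% of all genes were. DDIT3 (1.97 and 2.74 RPKM) and NUPR1 (0.73 and 1.46) were higher by less than that, and NUPR1 entered only through SA. Of 33 genes of cholesterol and fatty acid synthesis 24 were lower (median -0.17), among them FASN, fatty acid synthase (102 and 74.9 RPKM), and DHCR7 (46.3 and 35.2), while SCD, the desaturase, was level (158 and 159). Of 33 genes of glycolysis and the hypoxia response 25 were lower (median -0.11), with SLC2A1, the glucose transporter, at 101 and 74.0 RPKM. None of the 33 genes in either list reached 1.5-fold, where 1.43% of all genes were that much higher and 1.4% that much lower. At such shares a list of this size can easily hold none, so this sets neither list apart.

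More genes of the inflammatory lists were lower than higher too. Of 17 NF-kB feedback genes and targets 15 were lower (median -0.20), with RELB at 5.59 RPKM in DLD1 and 3.10 in SA, NFKB2 at 13.1 and 8.89 and the inhibitor NFKBIE at 12.9 and 8.12. The subunit NFKB1 was nearly level (8.81 and 8.52 RPKM), and SOD2, a mitochondrial target, was higher (6.54 and 7.29). Of 14 chemokines and cytokines 11 were lower (median -0.28), including LIF (18.6 and 12.9 RPKM), CXCL5 (158 and 119) and IL32 (1.43 and 0.28). Of 20 interferon response genes 18 were lower (median -0.13), with IFITM3 at 165 and 127 RPKM and ISG15 at 79.2 and 63.8. No interferon gene was past 1.5-fold, where 1.43% of all genes were that much higher and 1.4% that much lower. STAT2, a transcription factor of the response, stood at 8.26 and 7.75 RPKM. With no minimum level the medians of these lists were -0.10 for NF-kB genes, -0.07 over 30 chemokines and cytokines and -0.05 for interferon response genes.

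Genes of contacts between cells and with the matrix were mostly lower by small amounts. Of 37 genes of epithelial adhesion and junctions 29 were lower (median -0.15) and 4 were past 1.5-fold lower where 1.4% of all genes were. CLDN4 stood at 55.5 RPKM in DLD1 and 36.3 in SA, CLDN7 at 105 and 72.2, and TJP3, a tight junction scaffold, at 10.9 and 6.92. The desmosomal genes DSP (18.8 and 18.99 RPKM) and DSG2 (38.9 and 38.2) were level, and CLDN15 was higher (2.96 and 5.15). Of 12 genes with integrin names 10 were lower (median -0.13), led by ITGA9 (1.21 and 0.17 RPKM), ITGA3 (34.4 and 22.7) and ITGB4, the integrin of hemidesmosomes (31.6 and 22.4). With no minimum level the integrin median was -0.01 over 25 genes. Of 17 epithelial transcription and splicing regulators 14 were lower (median -0.15), with GRHL3 at 17.3 and 11.9 RPKM and ELF3 at 13.6 and 9.63. The splicing regulators ESRP1 (4.24 and 4.59) and ESRP2 (32.4 and 31.3) were nearly level.

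Gene groups of growth were level or slightly higher. Of 51 ribosome biogenesis genes 37 were higher (median 0.08), where 6277 of all 11367 compared genes were. Among them were WDR43 (23.4 and 28.3 RPKM) and NPM1, nucleophosmin (425 and 478). But of 78 ribosomal protein genes 61 were lower (median -0.09, and -0.02 after subtracting the trend on mean level). Of 39 proliferation genes 28 were higher (median 0.07), with MKI67 at 31.3 RPKM in DLD1 and 38.6 in SA. That median was 0.01 after correction for GC content. Of 17 clock genes 13 were higher (median 0.11), including NR1D1, a clock repressor (11.5 and 16.9 RPKM), and ARNTL, the activator BMAL1 (2.02 and 2.99). Of 270 zinc finger genes with ZNF names 189 were higher (median 0.10, and 0.06 after GC correction). Respiratory chain subunits (73 genes, median -0.02), DNA replication genes (50 genes, -0.003) and solute carriers (159 genes, 0.04) had medians close to the 0.03 of all genes.

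**Figure D4:**
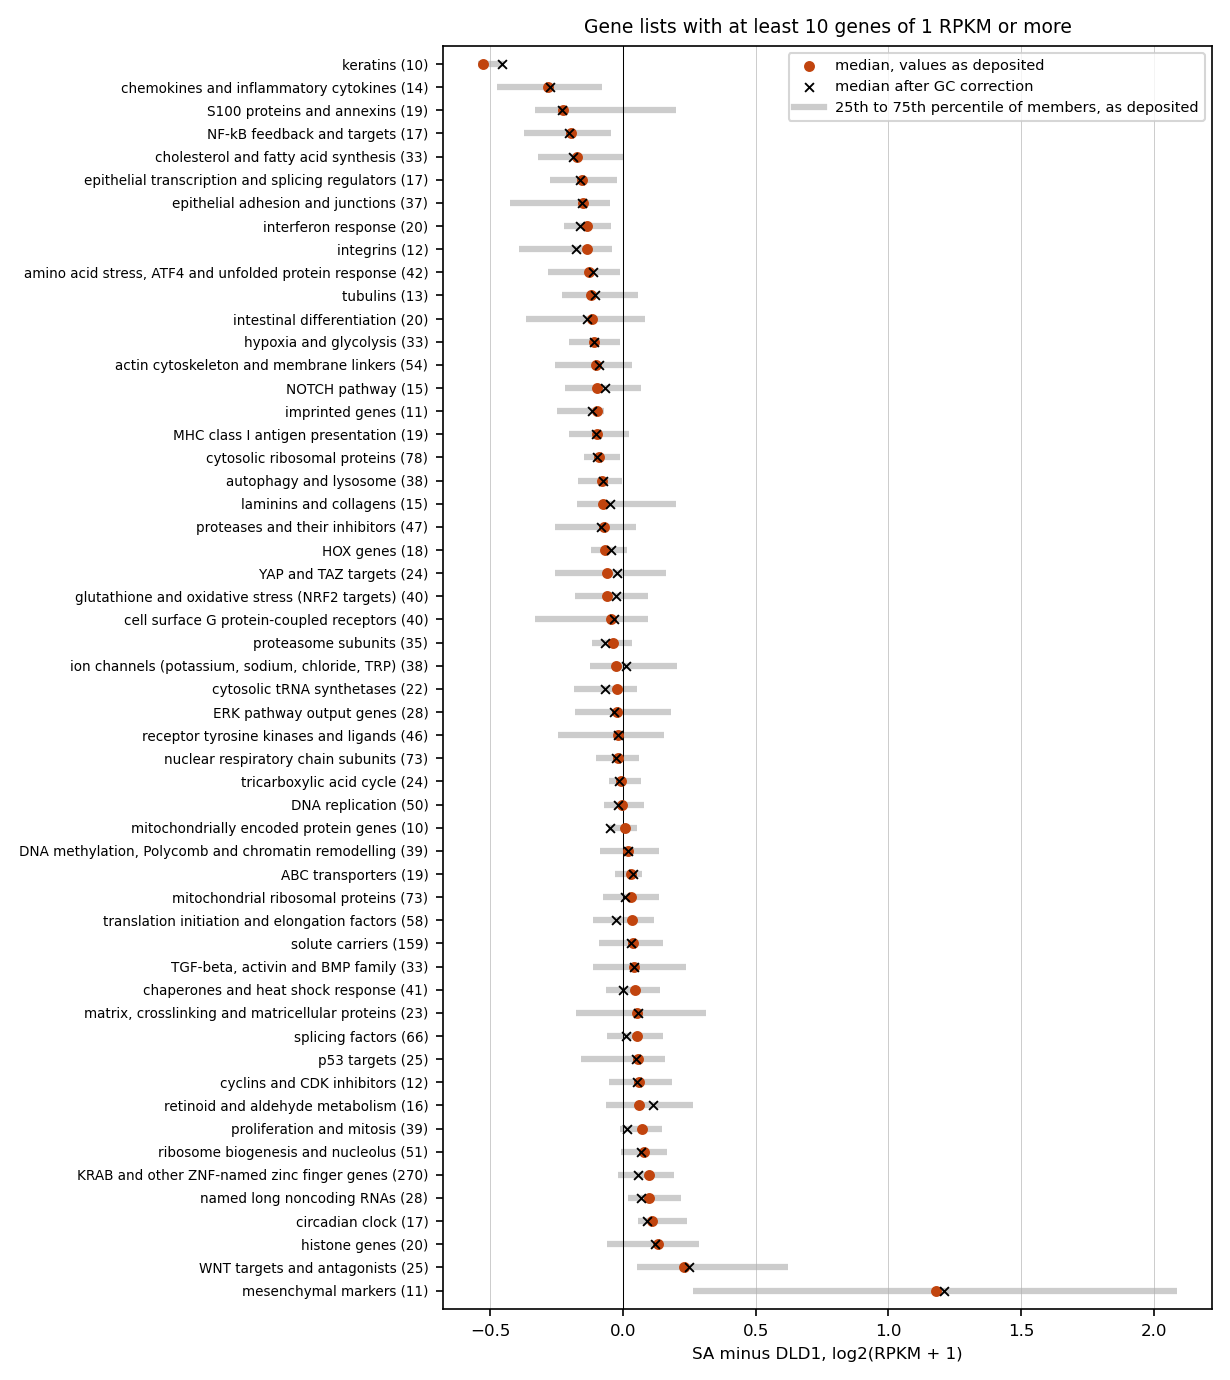
Median of SA minus DLD1 in log2(RPKM + 1) for each gene list with at least 10 compared genes (number in brackets), as deposited (red) and after GC correction (cross), with the middle range of members (grey bar). Keratins lie lowest at -0.53, and mesenchymal markers highest at 1.18, where VIM, SPARC, MSN and AXL entered only through SA. With no minimum level these medians were -0.03 and 0.04.

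The mesenchymal marker list itself held few expressed genes. Of 32 listed genes 11 entered the comparison, 10 of them higher and 6 past 1.5-fold where 1.43% of all genes were (median 1.18), and VIM, SPARC, MSN and AXL entered only through SA. The median was 0.39 with a pseudocount of 5 and 0.04 over 28 genes with no minimum level. Of the members already expressed in DLD1, S100A4 was also higher, at 8.56 RPKM in DLD1 and 28.5 in SA (1.63). Smaller differences were seen in CD44, a hyaluronan receptor (4.37 and 5.84 RPKM), and TPM2, a tropomyosin (1.46 and 2.05). The same held for NT5E, a surface nucleotidase (29.4 and 31.5). TAGLN, an actin-binding protein, was the 1 lower member (1.56 and 1.32). Of 4 compared transcription factors of the transition 3 were lower in SA (median -0.14), SNAI1 among them (2 and 1.52 RPKM). The 1 higher factor was SOX4 (24.4 and 32.8 RPKM).

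The difference between SA and DLD1 moved with the GC content of transcripts. Over 6456 broadly expressed genes with a GC value, Pearson's r of GC content with the difference was -0.44 and Spearman's rank correlation -0.51, across genes that share the 2 libraries. From the fifth of genes poorest in GC to the richest the median went from 0.11 to -0.11, and the number at least 1.5-fold lower from 0 to 18. Broadly expressed genes 1.5-fold lower had a median GC content of 57.3%, against 49.1% for all broadly expressed genes. After a smooth trend on GC content was taken off, 47 of the 50 genes 2-fold higher and 25 of the 27 lower were still past 2-fold. Of the 48 broadly expressed lower genes 38 were still past 1.5-fold, and 20 of the 24 higher ones. The part of GC content in small differences was not tested further. By level, the median was 0.03 at 5 to 10 RPKM and -0.07 over 100 RPKM.

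**Figure D5:**
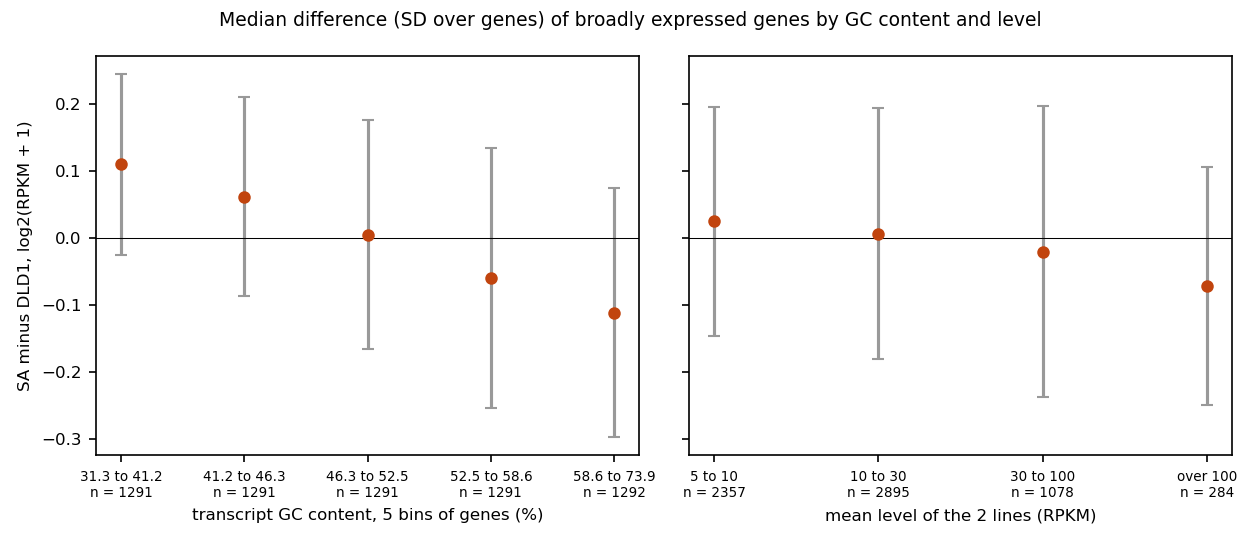
Median of SA minus DLD1 in log2(RPKM + 1) over broadly expressed genes in 5 bins of transcript GC content (left) and by mean level of both lines (right), with bars of 1 SD over genes. The median goes from 0.11 to -0.11 with rising GC content and from 0.03 to -0.07 with level.

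Position along the genome showed the same trend in part. Chromosome 19, rich in GC (median 60.2%), had the lowest median of broadly expressed genes, at -0.11 with 362 of 434 genes lower, and -0.04 after GC correction. Chromosome 13, poor in GC (median 42.0%), had the highest at 0.10, with 82 of 111 genes higher. After GC correction its median was 0.030, and chromosome 21 was the highest at 0.034. Among windows of 15 neighbouring broadly expressed genes, the lowest ran from TUBB to NFKBIL1 on chromosome 6 (median -0.26, 3 of 15 higher), and the window from PIDD to H19 on chromosome 11 had 1 of 15 higher (-0.21). The window from ALG5 to COG3 on chromosome 13 had all 15 genes higher (0.20), and 0.13 after GC correction with 13 higher. After GC correction the lowest windows ran from IL20RA to SF3B5 and from HLA-C to CLIC1, both on chromosome 6. Each had a median of -0.18 with 2 of 15 genes higher. The highest then ran from TRIM4 to TSC22D4 on chromosome 7 (0.14, 11 of 15 higher). No window median reached the 1.5-fold used for single genes. Among single broadly expressed genes only 0.363% were that much higher and 0.726% that much lower, so a median of 15 could hardly reach it.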

How the data were processed

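Total RNA of 4 lines, 1 library each, was sequenced from standard Illumina libraries, per the labels' protocols. For each line the authors deposited 1 column of gene values with 2 decimals, taken here to be RPKM from the values themselves. The submitters' processing notes name hg19 as the build. Aligner, counting tool, annotation and strand setting: not given in the sources used here. Reads per RPKM were estimated from the step between low values of genes of 200 to 500 bases, with lengths and GC content from GENCODE 29 (10705 of 11367 genes). Such estimates cover counting error only.

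Differences were taken as log2(RPKM + 1), SA minus DLD1. Named were all genes past 2-fold, 3 on either side of that limit, 25 broadly expressed genes and 10 by RPKM change in each direction, genes on in 1 line and off in the other, the outer and most abundant members of 65 lists, and label markers. From these the text gives a selection by function. Clone, small RNA and pseudogene names were skipped, and some genes covered by this rule are not reported here. Members and lists were chosen with earlier results of these data known. Comparisons with SPH and METS would share DLD1, so only levels are given. Alternatives were other pseudocounts, minimum levels, scalings, window sizes, and lowess corrections (span 0.3) on GC content or level. Names and promoters came from RefSeq (10756 of 11367 genes matched). Python 3.11.15, pandas 2.3.3, scipy 1.17.1, statsmodels 0.14.6 and matplotlib 3.10.9 were used.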

Additional observations from a re-analysis of the deposited data

How the results depend on the processing

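No difference has a replicate check, and counts of genes depend on the pseudocount and the minimum level. With a pseudocount of 0.1 there were 211 genes past 2-fold, 121 higher and 90 lower, and with a pseudocount of 5 there were 12, 7 higher and 5 lower. Those 12 are among the 77 by construction, since a larger pseudocount shrinks every difference. A minimum of 5 RPKM in the higher line left 29 genes, 14 higher and 15 lower, since fewer genes entered. Among broadly expressed genes a pseudocount of 5 gave 11 higher and 24 lower at 1.5-fold. A minimum of 10 RPKM in both lines gave 12 and 31, and one of 20 RPKM gave 7 and 21. Gene lists with a median of at least 0.2 in size numbered 5, and 2 with a pseudocount of 5 and 1 with no minimum. The range of window medians, 0.47, was 0.36 with windows of 25 genes and 0.32 after GC correction. The other counts stayed within 1.5 times under each scaling, GC and level correction. Scaling to summed RPKM without mitochondrial genes raises SA, and 813 compared genes turned from lower to higher, each at most 0.039 below 0 as deposited. CDX2, THBS1, AGR2, RARA, CSNK2B and DSG2 were among them, and none of the 77 genes was. Of 55 list medians 18 changed sign under at least 1 alternative, each of them at most 0.1 from 0 as deposited. Scaling shifted the median of all genes from 0.03 to at most 0.06. No paired analysis was possible because each line has 1 library and the labels carry no replicate numbers.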
